A study of Homo sapiens with 16 samples.

Results

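The SLC25 family holds carrier proteins, most of which move metabolites across the inner mitochondrial membrane. Members were taken from the table of gene counts as every row whose symbol is SLC25A followed by a number, which gave 48 of the 35106 rows. The study sequenced RNA of 2 human breast cancer lines in 16 libraries. Cells of MDA-MB-231, a triple-negative line with mesenchymal traits, received 500 nM MitoQ for 48 h (5 libraries) or were controls (5 libraries), at passage 25. SKBR3, a line with an amplified ERBB2 gene, was at passage 10 and had 3 MitoQ libraries (500 nM, 48 h) and 3 control libraries. MitoQ is a ubiquinone linked to a lipophilic cation that draws it into mitochondria. What the controls received, and whether replicates were separate cultures, is not given in the sources used here, so p-values measure only the spread between these libraries. Passage differed with the line, and the effects of the 2 cannot be told apart.

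Carriers of this family share one fold, built from repeated pairs of transmembrane helices around a central binding site, and most exchange one solute for another. They hand ADP in and ATP out, bring phosphate to ATP synthase, and move citrate, malate, glutamate, aspartate, acylcarnitines, cofactors and iron between matrix and cytosol. Together they decide which reducing equivalents and carbon skeletons each compartment can use. The members were placed by known substrate into ADP/ATP carriers (4 genes), ATP-Mg/phosphate carriers (4), the phosphate carrier (1), di- and tricarboxylate carriers (4), amino acid carriers (9), the carnitine carrier (1), cofactor and nucleotide carriers (12), iron carriers (2), uncoupling protein-like carriers (3) and carriers whose substrate is unknown or not settled (8).

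The ADP/ATP carriers include SLC25A6, the 1 member past the test in opposite directions in the 2 lines. They are close relatives, so the first 90 coding bases of the 3 expressed ones are shown to let their counts be judged. The sequences are from GENCODE release 29 on GRCh38 and run 5′ to 3′ on the coding strand. Capitals mark the 30 of 90 positions at which the 3 sequences are not all alike.
SLC25A4: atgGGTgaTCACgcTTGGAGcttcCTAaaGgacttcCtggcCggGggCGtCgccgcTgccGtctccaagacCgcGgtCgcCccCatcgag
SLC25A5: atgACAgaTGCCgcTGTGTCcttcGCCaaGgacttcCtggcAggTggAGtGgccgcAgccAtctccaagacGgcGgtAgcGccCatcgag
SLC25A6: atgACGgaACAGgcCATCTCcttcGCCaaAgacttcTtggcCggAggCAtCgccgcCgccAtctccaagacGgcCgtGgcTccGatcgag
Over the whole coding sequence of 894 bases, SLC25A5 and SLC25A6 were identical at 78.7% of positions, SLC25A4 and SLC25A6 at 77.9%, and SLC25A4 and SLC25A5 at 77.2%. No stretch of 31 bases was shared between any 2 of them (0% in each pair), so reads of that length in the coding part can be assigned to one of the 3.

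Total counts per library were 19844695 to 25904852 in the MDA-MB-231 MitoQ libraries, 23612986 to 29294865 in the MDA-MB-231 controls, 19157771 to 27739692 in the SKBR3 MitoQ libraries and 14723152 to 27841144 in the SKBR3 controls. Where a library has a count of 0, the level may be as high as 0.102 to 0.204 CPM (counts scaled to library size), depending on depth. This limit covers counting error only. SKBR3 control 3 lay nearer to the MitoQ libraries than the other controls did on the first principal component (13.1 to 17.4 for the MitoQ libraries, -7.42 for control 3, and -20.0 and -18.8 for the other controls). Calls of carriers lost without this library are given, as is the changed number of members called higher. MDA-MB-231 MitoQ 2 lay apart on the second component. Of 6 SKBR3 markers, 5 were higher and 1 lower in SKBR3 than in MDA-MB-231 controls, and all 6 MDA-MB-231 markers were lower. The exception, the transcription factor GATA3, had 7.25 ± 0.507 CPM in SKBR3 MitoQ and 6.45 ± 0.605 CPM in SKBR3 control libraries, against 12.7 ± 1.01 CPM in MDA-MB-231 MitoQ and 11.9 ± 0.862 CPM in MDA-MB-231 control libraries. The summed level of 6 SKBR3 markers was 7865 to 8337 CPM in SKBR3 MitoQ and 6936 to 7960 CPM in SKBR3 control libraries, against 412 to 515 CPM in MDA-MB-231 MitoQ and 253 to 297 CPM in MDA-MB-231 control libraries. The 6 MDA-MB-231 markers summed to 7016 to 7833 CPM in MDA-MB-231 MitoQ, 6524 to 7140 CPM in MDA-MB-231 control, 48.4 to 53.3 CPM in SKBR3 MitoQ and 26.7 to 28.0 CPM in SKBR3 control libraries. Leukocyte markers (6 genes) summed to 30.8 to 40.7 CPM in MDA-MB-231 MitoQ, 40.4 to 48.1 CPM in MDA-MB-231 control, 8.62 to 11.7 CPM in SKBR3 MitoQ and 6.17 to 6.97 CPM in SKBR3 control libraries, with CD3E at 0 in MDA-MB-231 MitoQ. Endothelium and fibroblast markers (6 genes) summed to 3.50 to 4.54, 3.01 to 4.62, 25.9 to 30.9 and 22.1 to 26.8 CPM in the same order of groups, with LUM at 0 in SKBR3. The part of these markers in the results was not tested, and in such bulk libraries fewer cells of a kind and less RNA per cell cannot be told apart. The share of counts on genes encoded in mitochondrial DNA was 1.11% ± 0.134 in MDA-MB-231 MitoQ and 3.31% ± 0.233 in MDA-MB-231 control libraries (SD, n = 5 each). It was 5.19% ± 0.0590 in SKBR3 MitoQ and 6.46% ± 0.717 in SKBR3 control libraries (SD, n = 3 each).

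In MDA-MB-231 treated with MitoQ, 2 of 3 tested ADP/ATP carriers, the phosphate carrier, 3 of 4 di- and tricarboxylate carriers and both aspartate-glutamate carriers were lower. Higher were 1 of 2 iron carriers and the carriers SLC25A26 (S-adenosylmethionine), SLC25A39 (glutathione) and SLC25A42 (coenzyme A). The amino acid carriers as a group were split, with 3 higher and 3 lower of 7 tested. Of the 12 cofactor and nucleotide carriers 3 were higher, 1 was lower and 8 did not pass the test. The mean level of the carnitine carrier SLC25A20 was 5.91 ± 0.331 CPM with MitoQ and 10.4 ± 1.04 CPM in controls. That of the iron carrier SLC25A37 was 175 ± 3.78 CPM with MitoQ and 127 ± 2.05 CPM in controls (SD, n = 5 each). Levels are CPM normalised within each line, and changes are log2 fold changes of MitoQ over control ± SE, tested with the quasi-likelihood F test of edgeR with Benjamini-Hochberg adjustment over all genes. Of 48 members 42 passed the filter on low counts, and 24 of them (57.1%) were past an adjusted p of 0.05, 11 higher and 13 lower. Among all 15304 genes tested, 57.5% were past it, 29.9% higher and 27.6% lower, so the share of called carriers was close to that of all genes. Without control 5, 7 members were higher in place of 11. The median log2 fold change was -0.02 over the members tested and 0.01 over all genes. Carriers together took 0.238% ± 0.00405 of all counts with MitoQ and 0.255% ± 0.00248 in controls (SD, n = 5 each).

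**Figure D1:**
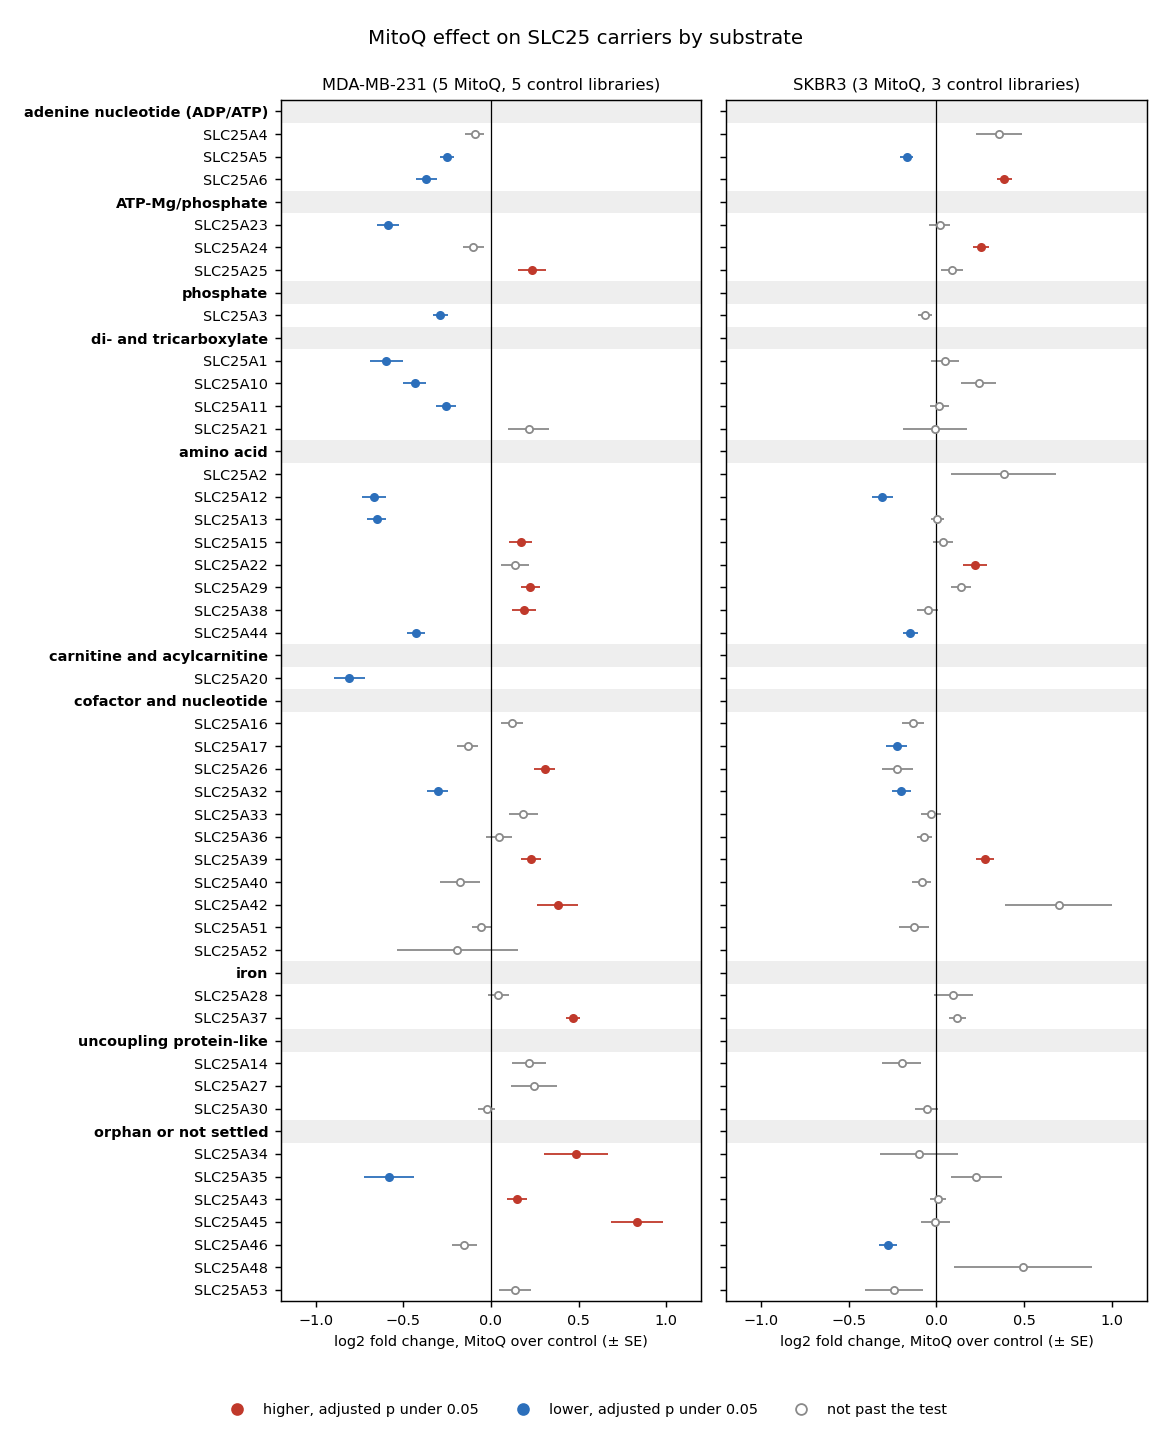
Log2 fold change (MitoQ over control, x axis, ± SE) of the tested SLC25 carriers reported here, grouped by substrate down the page, in MDA-MB-231 (left) and SKBR3 (right). Red and blue filled points are higher and lower at an adjusted p under 0.05 and open grey points are not past the test. SLC25A1, SLC25A11 and SLC25A13 lie left of 0 in MDA-MB-231 (-0.60, -0.26 and -0.65) and near 0 in SKBR3 (0.05, 0.02 and 0.00), and SLC25A6 lies on opposite sides in the 2 lines.

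Both abundant ADP/ATP carriers fell in MDA-MB-231. SLC25A6 (ENSG00000169100, GRCh38 chromosome X, 1386152 to 1392724) had 164, 129.9, 161, 165 and 162 CPM in the MitoQ libraries, against 206, 211, 203, 194 and 196 CPM in the controls. All MitoQ libraries lay below all controls, with MitoQ 2 the lowest, and the log2 fold change was -0.37 ± 0.058 (adjusted p = 2.18e-05 from edgeR). SLC25A5 (ENSG00000005022, chromosome X, 119468400 to 119471319), the carrier of growing cells, had 290.4, 292, 314, 296 and 294 CPM with MitoQ, against 352, 350.3, 349, 345 and 375 CPM in controls. The groups again did not overlap (log2 fold change -0.25 ± 0.041, adjusted p = 3.58e-05 from edgeR). Of the 31-base stretches of SLC25A5, 31.8% also occur in transcripts of other genes, which makes its count less certain than those of SLC25A6 (2.28%) and SLC25A4 (1.59%). The largest part, 13.3%, lies in its antisense partner SLC25A5-AS1. That gene is on the opposite strand and has no row among the deposited counts. The strand setting is not given, so the weight of this part cannot be told. SLC25A4 (ENSG00000151729, chromosome 4, 185143241 to 185150382), the carrier of heart and muscle, had 33.6, 33.5, 38.2, 34.8 and 38.0 CPM with MitoQ and 38.5, 38.7, 39.1, 37.0 and 36.2 CPM in controls. The ranges overlap and the test was not passed (log2 fold change -0.09 ± 0.054, adjusted p = 0.157 from edgeR). SLC25A31, the form of the male germ line, had 1 count over the MitoQ libraries and 2 over the controls and was not tested.

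The phosphate carrier SLC25A3 (ENSG00000075415, chromosome 12, 98593591 to 98606379), which supplies ATP synthase together with the ADP/ATP carriers, fell as well. It had 545, 534, 562, 550.5 and 554 CPM with MitoQ, against 679, 683, 682, 629.8 and 678 CPM in controls. No MitoQ library reached the lowest control, and the log2 fold change was -0.29 ± 0.041 (adjusted p = 5.93e-06 from edgeR). The ATP-Mg/phosphate carriers, which set the adenine nucleotide pool of the matrix, moved apart. SLC25A23 (ENSG00000125648, chromosome 19, 6436079 to 6465203) had 55.8, 45.8, 57.6, 56.6 and 55.8 CPM with MitoQ, against 86.9, 85.7, 85.4, 76.1 and 74.4 CPM in controls, without overlap. It was 1.51-fold lower (log2 fold change -0.59 ± 0.063, adjusted p = 2.06e-07 from edgeR). SLC25A25 (ENSG00000148339, chromosome 9, 128068201 to 128109245) was 1.18-fold higher, at 19.2 to 25.9 CPM with MitoQ and 16.2 to 21.0 CPM in controls, ranges that overlap (adjusted p = 0.0199, and 0.0691 without control 5, from edgeR). Of its 31-base stretches 14.7% occur in other genes' transcripts, mostly those of SLC25A25-AS1, on the opposite strand and without a row among the deposited counts. SLC25A24 had 114 to 143 CPM with MitoQ and 126 to 143 CPM in controls and did not pass the test (log2 fold change -0.10 ± 0.059, adjusted p = 0.153 from edgeR), and SLC25A41 had too few counts to be tested.

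Of the 4 di- and tricarboxylate carriers 3 fell. The citrate carrier SLC25A1 (ENSG00000100075, chromosome 22, 19175575 to 19178830), which exports citrate for fatty acid and sterol synthesis, had 43.0, 34.1, 51.8, 46.4 and 48.0 CPM with MitoQ, against 72.8, 71.5, 71.5, 62.8 and 58.8 CPM in controls. The highest MitoQ library stayed below the lowest control, a 1.51-fold fall (log2 fold change -0.60 ± 0.097, adjusted p = 0.000111 from edgeR). SLC25A10, the dicarboxylate carrier that exchanges malate or succinate for phosphate, had 19.1 to 24.0 CPM with MitoQ and 27.1 to 30.0 CPM in controls (log2 fold change -0.44 ± 0.067, adjusted p = 1.6e-05 from edgeR). An overlapping gene on the same strand, AC139530.2, holds 43.3% of the 31-base stretches of SLC25A10. SLC25A11, the oxoglutarate-malate carrier of the malate-aspartate shuttle, had 38.3 to 46.4 CPM with MitoQ and 44.8 to 52.1 CPM in controls, and was lower although 1 MitoQ library reached into the control range (log2 fold change -0.26 ± 0.059, adjusted p = 0.00104 from edgeR). SLC25A21, which carries oxoadipate and oxoglutarate, had 3.37 to 4.05 CPM with MitoQ and 2.74 to 3.53 CPM in controls and did not pass the test (adjusted p = 0.128 from edgeR).

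Among the amino acid carriers both aspartate-glutamate exchangers, the other membrane step of the malate-aspartate shuttle, were clearly lower with MitoQ. SLC25A12 (ENSG00000115840, chromosome 2, 171784370 to 171999859), known as aralar, had 17.1, 22.6, 20.8, 18.6 and 19.6 CPM with MitoQ, against 31.8, 33.4, 30.5, 30.9 and 30.0 CPM in controls. SLC25A13 (ENSG00000004864, chromosome 7, 96120220 to 96322147), known as citrin, had 28.1, 32.6, 29.1, 29.5 and 27.9 CPM with MitoQ, against 45.0, 49.8, 46.2, 45.7 and 44.6 CPM in controls. The MitoQ libraries of both genes lay wholly below the controls. The log2 fold changes were -0.67 ± 0.068 for SLC25A12 (adjusted p = 1.02e-07 from edgeR) and -0.65 ± 0.055 for SLC25A13 (adjusted p = 7.82e-09 from edgeR), and the coding sequences of the pair, identical at 71.6% of positions, share no 31-base stretch. SLC25A44, which takes up branched-chain amino acids, also fell, at 33.1 to 37.4 CPM with MitoQ and 46.2 to 50.6 CPM in controls (log2 fold change -0.43 ± 0.051, adjusted p = 8.8e-07 from edgeR). Smaller rises passed the test for SLC25A29, a carrier of basic amino acids (1.17-fold, adjusted p = 0.00215), SLC25A38, the glycine carrier of haem synthesis (1.14-fold, adjusted p = 0.0261), and SLC25A15, the ornithine-citrulline carrier of the urea cycle (1.12-fold, adjusted p = 0.0328), all from edgeR. The SLC25A15 call was lost without control 1, 3, 4 or 5 (adjusted p = 0.0615, 0.0554, 0.0598 and 0.0712), and that of SLC25A38 without control 4, control 5 or MitoQ 5 (0.0748, 0.0713 and 0.0651). The SLC25A38 ranges overlapped (46.6 to 61.7 CPM with MitoQ, 44.0 to 50.2 CPM in controls), and SLC25A15 was pulled up by MitoQ 2 at 52.8 CPM, against 40.5 to 42.5 CPM in the other MitoQ libraries and 37.9 to 39.9 CPM in controls. The glutamate carrier SLC25A22 did not pass the test (log2 fold change 0.14 ± 0.079, adjusted p = 0.152 from edgeR), while SLC25A2 and SLC25A18 had too few counts to be tested.

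The largest fall of the family was that of SLC25A20 (ENSG00000178537, chromosome 3, 48856931 to 48898993), the carnitine-acylcarnitine carrier through which long-chain fatty acids reach beta-oxidation. It had 6.43, 5.97, 5.53, 5.77 and 5.85 CPM with MitoQ, against 11.8, 9.66, 9.89, 9.37 and 11.1 CPM in controls. The lowest control lay well above the highest MitoQ library, a 1.75-fold fall (log2 fold change -0.81 ± 0.089, adjusted p = 2.62e-07 from edgeR).

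The 12 cofactor and nucleotide carriers were mixed, with 3 higher, 1 lower and 8 not past the test. SLC25A26 (ENSG00000144741, chromosome 3, 66133610 to 66388116), which imports S-adenosylmethionine for methylation in the matrix, had 18.5, 19.6, 18.7, 21.3 and 19.2 CPM with MitoQ, against 16.0, 15.4, 15.4, 15.5 and 16.2 CPM in controls. Each MitoQ library was above each control (log2 fold change 0.31 ± 0.060, adjusted p = 0.000211 from edgeR), with 17% of its 31-base stretches in other genes' transcripts, mainly those of LRIG1. SLC25A42 (ENSG00000181035, chromosome 19, 19063999 to 19112888), the coenzyme A carrier, had 5.04, 4.88, 6.81, 5.05 and 4.76 CPM with MitoQ, against 4.06, 3.71, 4.45, 4.24 and 3.83 CPM in controls (log2 fold change 0.38 ± 0.12, adjusted p = 0.00942 from edgeR). SLC25A39, a glutathione importer, rose 1.17-fold (adjusted p = 0.00193 from edgeR), with 88.5 to 113 CPM in MitoQ libraries and an overlapping 82.1 to 90.5 CPM in controls. Its relative SLC25A40 did not pass the test (log2 fold change -0.18 ± 0.11, adjusted p = 0.207 from edgeR). The folate carrier SLC25A32 was lower, at 69.1 to 89.0 CPM with MitoQ and 91.1 to 99.0 CPM in controls (log2 fold change -0.30 ± 0.058, adjusted p = 0.00016 from edgeR). Of its 31-base stretches 78% are shared, mostly with AC012213.5, an overlapping gene on the same strand. Carriers of NAD (SLC25A51) and of pyrimidine nucleotides (SLC25A33 and SLC25A36) did not pass the test, with log2 fold changes of -0.06, 0.19 and 0.05.

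Of the 2 iron carriers SLC25A37 (ENSG00000147454, chromosome 8, 23528805 to 23575463), mitoferrin-1, had the smallest adjusted p of the family in this line. Its level was 181, 178, 174, 172 and 173 CPM with MitoQ, against 126, 124, 129, 126 and 129 CPM in controls. The groups were far apart for their spread, with a 1.38-fold rise (log2 fold change 0.47 ± 0.039, adjusted p = 5.54e-09 from edgeR). Its relative SLC25A28, mitoferrin-2, had 24.9 to 31.2 CPM with MitoQ and 26.6 to 29.3 CPM in controls (log2 fold change 0.04 ± 0.062, adjusted p = 0.586 from edgeR). None of the 3 uncoupling protein-like carriers SLC25A14, SLC25A27 and SLC25A30 was past the test in edgeR (adjusted p = 0.0611, 0.122 and 0.704).

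Carriers without a settled substrate held the largest rise. SLC25A45 (ENSG00000162241, chromosome 11, 65375192 to 65383701) had 5.45, 4.58, 6.12, 6.12 and 6.51 CPM with MitoQ, against 2.64, 2.62, 2.83, 4.54 and 3.55 CPM in controls. The lowest MitoQ library was just above control 4, the highest control, and the change was 1.78-fold (log2 fold change 0.84 ± 0.15, adjusted p = 9.36e-05 from edgeR). SLC25A35 (ENSG00000125434, chromosome 17, 8287763 to 8295343) was lower, at 2.33, 2.03, 1.78, 1.95 and 2.59 CPM with MitoQ, against 3.52, 2.74, 3.71, 3.05 and 3.02 CPM in controls (log2 fold change -0.58 ± 0.14, adjusted p = 0.0018 from edgeR). RANGRF on the opposite strand holds 29.2% of its 31-base stretches. SLC25A34 (ENSG00000162461, chromosome 1, 15736405 to 15741396) was near 1 CPM, with 1.39 to 1.90 CPM with MitoQ and 0.989 to 1.44 CPM in controls (log2 fold change 0.49 ± 0.18, adjusted p = 0.0278 from edgeR). Its call was lost with DESeq2 (adjusted p = 0.053), with no filter (0.0611) and without control 1 (0.0586), control 3 (0.0683), control 5 (0.052), MitoQ 2 (0.0643) or MitoQ 5 (0.0763). SLC25A43 was 1.11-fold higher (adjusted p = 0.0372 from edgeR), a call lost with the RLE scaling of libraries (0.0517), DESeq2 (0.0616), no filter (0.118) and without control 1, 2, 4 or 5 or MitoQ 3 (0.0739, 0.0535, 0.0578, 0.0876 and 0.0739). SLC25A46, an outer membrane protein of mitochondrial dynamics, had 38.2 to 52.2 CPM with MitoQ and 46.9 to 55.6 CPM in controls (adjusted p = 0.0802 from edgeR).

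**Figure D2:**
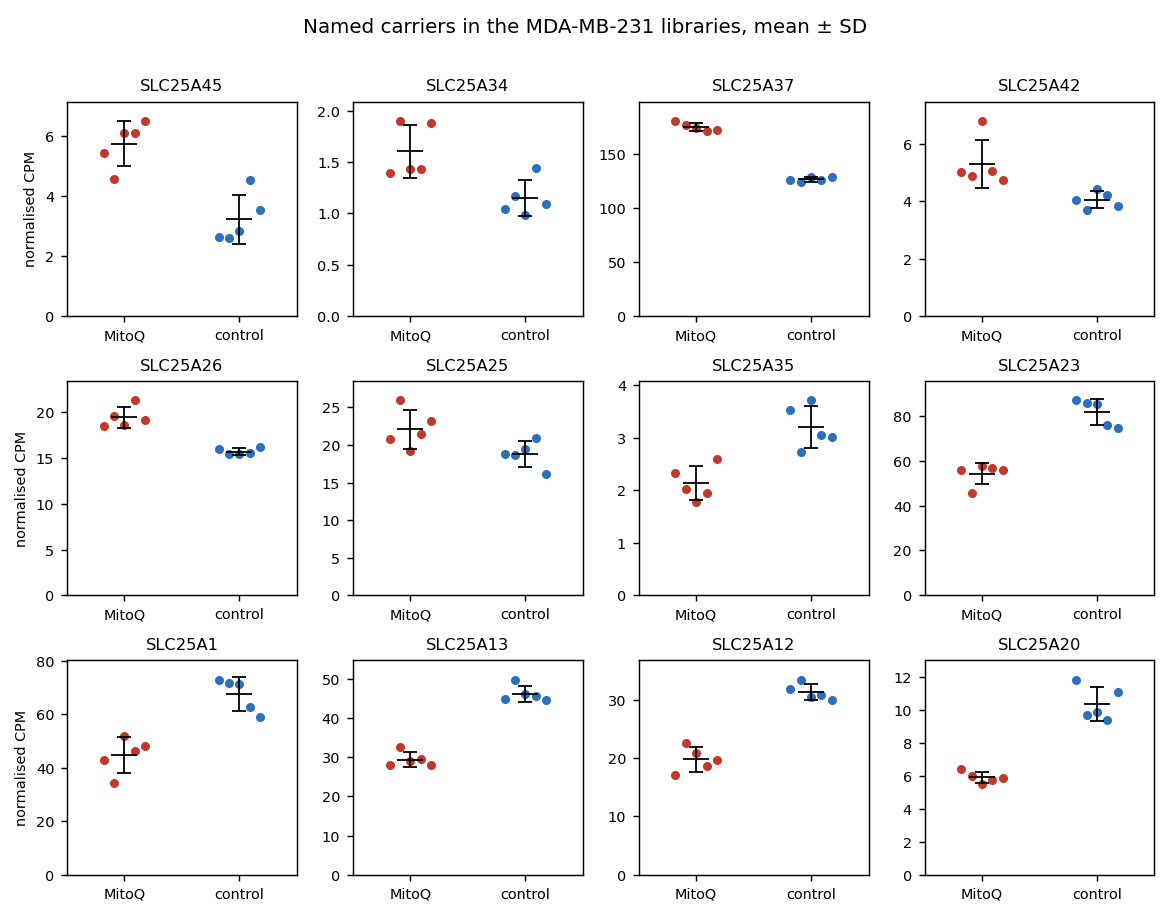
Normalised CPM (y axis, from 0) of 12 named carriers in each MDA-MB-231 library, MitoQ in red and control in blue, with mean ± SD in black (n = 5 each). SLC25A37 with MitoQ lies between 172 and 181 CPM above controls at 124 to 129 CPM, and the MitoQ points of SLC25A20, SLC25A12, SLC25A13 and SLC25A1 lie wholly below their controls.

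In SKBR3 the ADP/ATP carrier SLC25A6, the glutathione carrier SLC25A39 and the ATP-Mg/phosphate carrier SLC25A24 were higher with MitoQ, and the aspartate-glutamate carrier SLC25A12 and SLC25A46 were the largest falls. The mean of SLC25A6 was 718 ± 27.8 CPM with MitoQ and 548 ± 24.0 CPM in controls (SD, n = 3 each). Of 41 members tested, 10 (24.4%) were past the test, 4 higher and 6 lower, while 28% of all 15026 genes were past it, 13.8% higher and 14.1% lower. The median log2 fold change was -0.01 over the members and -0.000642 over all genes tested. Carriers took 0.306% ± 0.00374 of all counts with MitoQ and 0.291% ± 0.00799 in controls (SD, n = 3 each).

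SLC25A6 had 687, 726 and 741 CPM with MitoQ, against 555, 522 and 568 CPM in controls. The groups did not overlap and the rise was 1.31-fold (log2 fold change 0.39 ± 0.043, adjusted p = 2.21e-05 from edgeR). SLC25A5 moved the other way, with 359, 366 and 376 CPM with MitoQ, against 422, 409 and 408 CPM in controls, also without overlap (log2 fold change -0.17 ± 0.036, adjusted p = 0.00301 from edgeR). SLC25A4 was low in this line, with 5.67, 5.13 and 6.11 CPM with MitoQ and 4.31, 4.40 and 4.42 CPM in controls. Its log2 fold change of 0.36 ± 0.13 missed the threshold (adjusted p = 0.0524 from edgeR) and passed it with plain library totals (0.0496), with a filter at 1 CPM (0.0472) and when both lines were fitted together, the single fit (0.0215). SLC25A4 stayed short of the threshold in the other settings, with edgeR adjusted p of 0.0592 to 0.159 when 1 SKBR3 library was left out. SLC25A31 had no count in any SKBR3 library, which allows at most 3 counts per library.

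Of the other carriers of the ATP supply, SLC25A24 had 65.2, 64.2 and 63.6 CPM with MitoQ, against 52.2, 55.0 and 54.7 CPM in controls, a tight and separated pair of groups (log2 fold change 0.25 ± 0.046, adjusted p = 0.00104 from edgeR). AL359258.2 on the opposite strand, which has no row among the deposited counts, holds 13.2% of its 31-base stretches. SLC25A3 had 332, 336 and 359.9 CPM with MitoQ and 359.5, 352 and 362 CPM in controls and did not pass the test (log2 fold change -0.06 ± 0.039, adjusted p = 0.255 from edgeR). All 4 di- and tricarboxylate carriers were short of the test in edgeR, with adjusted p of 0.702 for SLC25A1, 0.131 for SLC25A10, 0.866 for SLC25A11 and 0.981 for SLC25A21. SLC25A10 had 113.9 to 125.1 CPM with MitoQ and 89.2 to 115.3 CPM in controls, the highest of these in control 3. Its value without control 3 is not given here.

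Aralar, SLC25A12, had 29.3, 27.6 and 27.1 CPM with MitoQ, against 33.4, 35.3 and 35.3 CPM in controls, and fell by 0.31 ± 0.059 on the log2 scale (adjusted p = 0.0014 from edgeR). Citrin, SLC25A13, had 165, 162 and 169 CPM with MitoQ and 165, 159.5 and 168 CPM in controls, all but the same range (log2 fold change 0.00 ± 0.038, adjusted p = 0.943 from edgeR). SLC25A44 had 77.1, 78.3 and 79.5 CPM with MitoQ and 85.8, 84.6 and 89.8 CPM in controls (log2 fold change -0.15 ± 0.042, adjusted p = 0.0162 from edgeR). This call was lost in the single fit (0.136) and without control 3 (0.0951), MitoQ 1 (0.0967) or MitoQ 2 (0.11). SLC25A22, which imports glutamate, had 42.4, 43.5 and 43.2 CPM with MitoQ, against 34.7, 33.8 and 41.4 CPM in controls. Control 3 stood nearest to the MitoQ libraries, and the call (log2 fold change 0.22 ± 0.070, adjusted p = 0.0292 from edgeR) was lost in the single fit (0.081) and without control 1 (0.115), control 2 (0.101), MitoQ 2 (0.0906) or MitoQ 3 (0.0803).

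SLC25A39 rose in SKBR3 too, at 87.7, 94.3 and 98.2 CPM with MitoQ, against 74.6, 73.7 and 82.0 CPM in controls (log2 fold change 0.28 ± 0.053, adjusted p = 0.0015 from edgeR). Its relative SLC25A40 was again short of the test (log2 fold change -0.08 ± 0.055, adjusted p = 0.292 from edgeR). SLC25A17, the coenzyme A and NAD carrier of peroxisomes, had 30.9, 34.5 and 32.9 CPM with MitoQ, against 38.2, 39.6 and 37.7 CPM in controls (log2 fold change -0.23 ± 0.059, adjusted p = 0.00974 from edgeR). Its call was lost without control 2 (0.0592) and without MitoQ 1 (0.0737). SLC25A32 had 44.8, 42.6 and 42.2 CPM with MitoQ and 46.9, 49.7 and 51.9 CPM in controls (log2 fold change -0.20 ± 0.055, adjusted p = 0.0135 from edgeR). It lost the call in the single fit (0.0891) and without control 2 (0.0606), control 3 (0.0754), MitoQ 2 (0.103) or MitoQ 3 (0.0503). SLC25A46 had 42.6, 40.7 and 44.1 CPM with MitoQ, against 51.3, 50.9 and 51.7 CPM in controls, clearly separated (log2 fold change -0.28 ± 0.051, adjusted p = 0.00119 from edgeR). The iron carrier SLC25A37 had 75.3, 78.9 and 71.6 CPM with MitoQ and 71.1, 69.7 and 67.8 CPM in controls, higher in each MitoQ library but not past the test (log2 fold change 0.12 ± 0.047, adjusted p = 0.0763 from edgeR). Without control 3, which stood apart from the other controls, 7 members were called higher in place of 4. The members added are not named here.

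**Figure D3:**
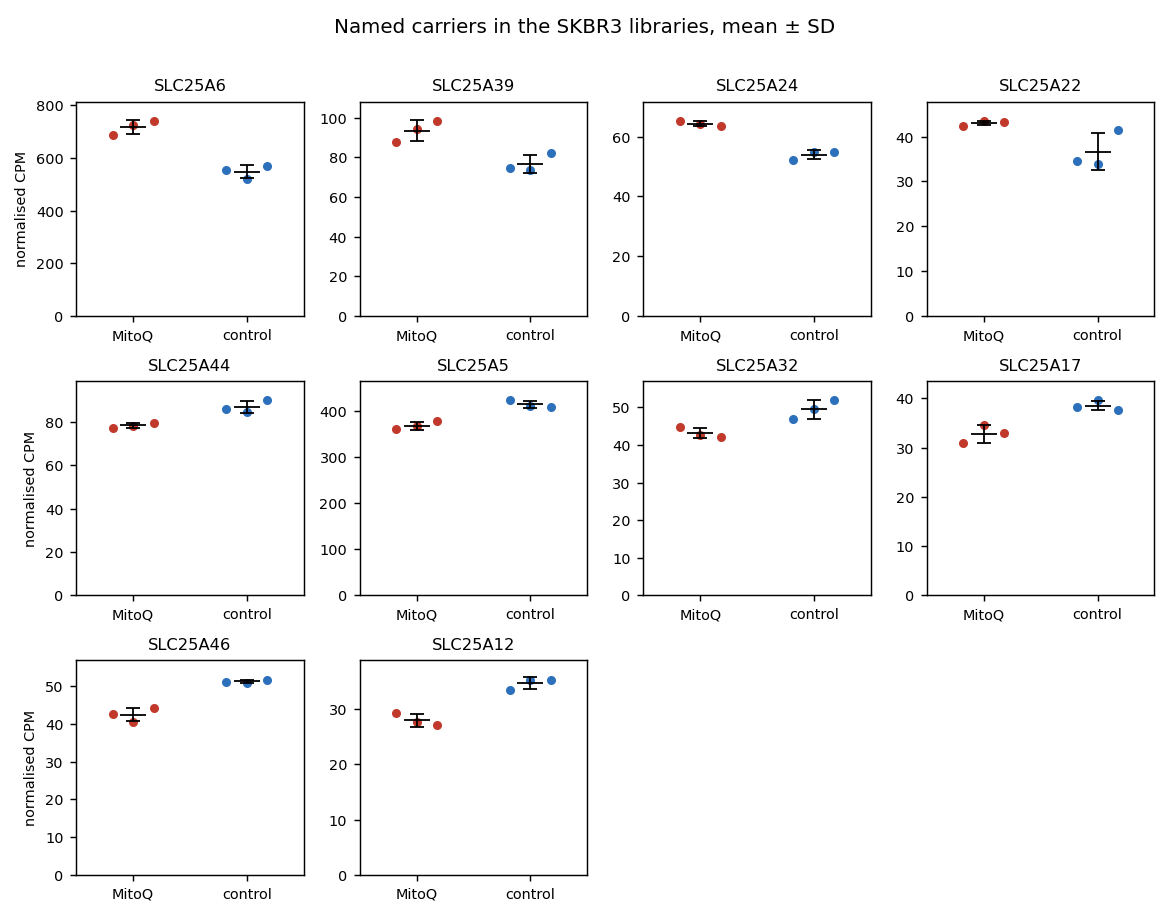
Normalised CPM (y axis, from 0) of the 10 carriers past the test in SKBR3, in each library, MitoQ in red and control in blue, with mean ± SD in black (n = 3 each). SLC25A6 lies at 687 to 741 CPM with MitoQ above controls at 522 to 568 CPM; the groups do not overlap in any panel, although control 3 of SLC25A22 (41.4 CPM) nearly meets the MitoQ libraries.

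Of 39 carriers tested in both lines, SLC25A5, SLC25A12, SLC25A32 and SLC25A44 were lower with MitoQ in both, SLC25A39 was higher in both, SLC25A6 was called in opposite directions, 17 were called in MDA-MB-231 alone (43.6%), 4 in SKBR3 alone (10.3%) and 12 in neither (30.8%). Of the 13785 genes tested in both lines, 38.4% were called in MDA-MB-231 alone, 9.78% in SKBR3 alone and 32.2% in neither, 6.91% were lower in both, 6.30% higher in both and 6.38% in opposite directions. The carriers' shares called in a single line or in neither lie near those of all genes. Among the carriers 10.3% were lower in both (4 members), 2.56% higher in both (1) and 2.56% called in opposite directions (1). These last shares rest on too few carriers to be set against those of all genes. The difference of the 2 effects was tested as an interaction over all 16 libraries, as the effect in MDA-MB-231 minus that in SKBR3. Of 44 members tested, 15 (34.1%) were past the test, 3 with a positive and 12 with a negative difference, while 34.1% of all 17094 genes were, 14.9% positive and 19.1% negative. With plain library totals the split was 6 positive and 12 negative among the members, and 3446 positive and 2458 negative, in place of 2554 and 3269, among all genes. SLC25A6 had a difference of -0.80 ± 0.089 (adjusted p = 2.26e-07 from edgeR), with an effect of -0.37 in MDA-MB-231 and 0.39 in SKBR3, and SLC25A4 one of -0.49 ± 0.12 (adjusted p = 0.00298). The difference for SLC25A5 was -0.13 ± 0.061 and was not past the test (adjusted p = 0.121 from edgeR, and 0.0438 without MDA-MB-231 MitoQ 3).

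The effect on citrin, SLC25A13, differed by -0.70 ± 0.072 (adjusted p = 5e-08 from edgeR), SLC25A10 by -0.72 ± 0.12 (4.09e-05), SLC25A1 by -0.69 ± 0.16 (0.00308), SLC25A12 by -0.40 ± 0.098 (0.00253) and SLC25A11 by -0.32 (0.0109). The largest negative difference was that of SLC25A35 (-0.85 ± 0.21, adjusted p = 0.00263 from edgeR), and SLC25A23, SLC25A24, SLC25A44 and SLC25A3 had differences of -0.65, -0.40, -0.32 and -0.27. On the positive side stood SLC25A45 (0.80 ± 0.19, adjusted p = 0.0023 from edgeR), SLC25A26 (0.49 ± 0.10, 0.000491) and SLC25A37 (0.31 ± 0.059, 0.000233). For SLC25A26 the effects were 0.31 in MDA-MB-231 and -0.22 in SKBR3, the second short of the test within its line (adjusted p = 0.0714 from edgeR). SLC25A20 had 2 counts in all over the 6 SKBR3 libraries, so no difference can be read for it.

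The control cells of the 2 lines differed in most carriers. Of 44 members tested, 39 (88.6%) were past the test, 22 higher in SKBR3 and 17 lower, in a comparison in which 86.5% of all 16398 genes were, 42% higher and 44.4% lower. CPM in this comparison are normalised over the 8 controls. SLC25A45 had 13.5, 13.1 and 13.4 CPM in SKBR3, against 2.60, 2.55, 2.77, 4.51 and 3.51 CPM in MDA-MB-231, a 4.20-fold difference (log2 2.07 ± 0.14, adjusted p = 2.87e-11 from edgeR). Citrin, SLC25A13, was 3.56-fold higher, at 162, 156 and 168 CPM in SKBR3 and 44.2 to 48.5 CPM in MDA-MB-231 (adjusted p = 4.7e-20 from edgeR). Aralar differed by 1.11-fold (adjusted p = 0.0156 from edgeR), a call lost without SKBR3 control 3 (0.0819), with no filter (0.203) and in the single fit (0.075). SLC25A10 was 3.51-fold, the pyrimidine nucleotide carrier SLC25A33 3.34-fold and SLC25A40 2.74-fold higher in SKBR3, and 31.8% of the 31-base stretches of SLC25A33 occur in other genes' transcripts. Of the ADP/ATP carriers, SLC25A4 had 4.24, 4.30 and 4.41 CPM in SKBR3, against 38.0, 37.7, 38.3, 36.8 and 35.9 CPM in MDA-MB-231, an 8.62-fold lower level (log2 -3.11 ± 0.075, adjusted p = 8.69e-20 from edgeR). SLC25A6 was 2.72-fold higher in SKBR3 (log2 1.44 ± 0.040, adjusted p = 8.65e-19 from edgeR) and SLC25A5 1.17-fold higher (adjusted p = 1.89e-05). Both iron carriers were lower in SKBR3, SLC25A28 by 1.44 and SLC25A37 by 0.87 on the log2 scale (adjusted p = 3.51e-13 and 1.31e-14 from edgeR). SLC25A42 was 5.26-fold lower, at 0.591, 0.728 and 0.896 CPM in SKBR3 and 3.62 to 4.36 CPM in MDA-MB-231 (adjusted p = 2.54e-10 from edgeR). SLC25A27, a neuronal uncoupling protein-like carrier, was 10.5-fold lower, at 0.179 to 0.376 CPM in SKBR3 and 2.57 to 3.15 CPM in MDA-MB-231 (adjusted p = 1.14e-10 from edgeR).

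**Figure D4:**
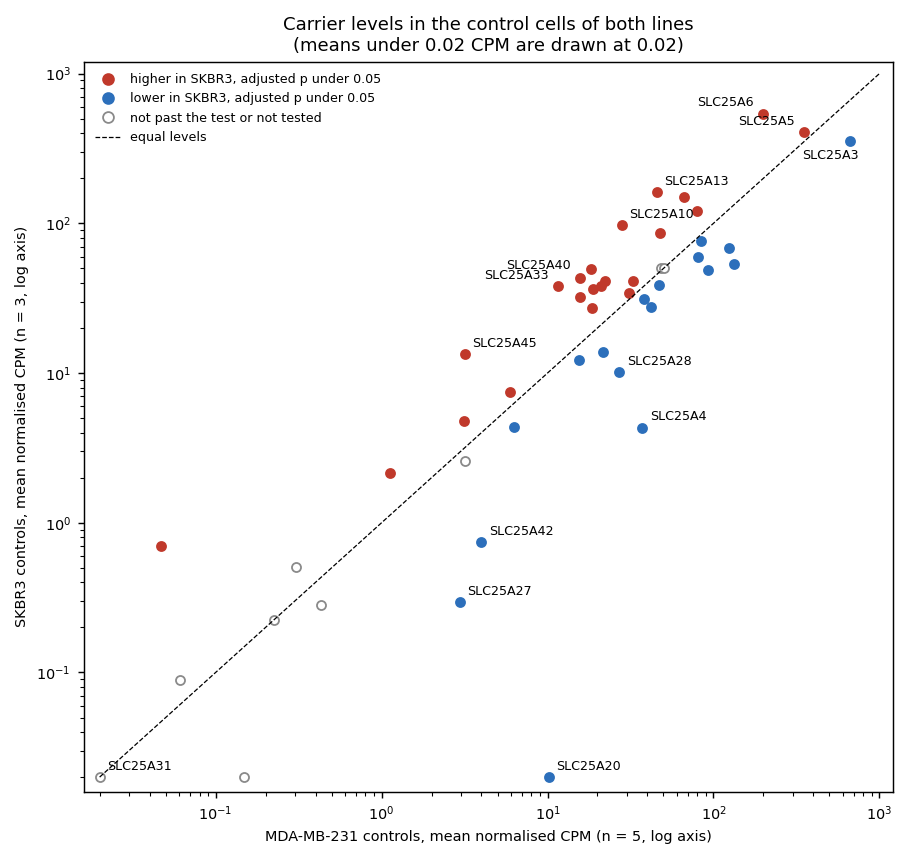
Mean normalised CPM of each of the 48 carriers in SKBR3 controls (y axis, n = 3) against MDA-MB-231 controls (x axis, n = 5), both log axes, with means under 0.02 CPM drawn at 0.02 and the dashed line at equal levels. SLC25A4 lies far below the line (4.32 against 37.4 CPM), SLC25A20 lies at the lower edge (0 against 10.2 CPM), and SLC25A13 and SLC25A45 lie above the line.

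SLC25A20 had no count in any of the 3 SKBR3 controls. With 3 counts over the group as the limit that a count of 0 allows, its pooled level there was below 0.0487 CPM, against 10.2 CPM pooled over the MDA-MB-231 controls (1305 counts), so it was at least 209-fold lower. The SKBR3 MitoQ libraries held 1 count in replicate 1, none in replicate 2 and 1 in replicate 3, against 112 to 171 counts in each MDA-MB-231 MitoQ library. Few of its 31-base stretches (0.898%) occur in other transcripts. Of 4 carnitine palmitoyltransferases, which work on either side of this carrier, 3 were higher and 1 lower in SKBR3 controls. Among all genes tested between the controls, 42% were higher and 44.4% lower. CPT1A of the outer membrane was 6.59-fold and CPT2 of the inner membrane 1.98-fold higher in SKBR3 than in MDA-MB-231 controls (log2 2.72 ± 0.039 and 0.98 ± 0.068, adjusted p = 1.24e-23 and 1.08e-11 from edgeR).

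Genes next to SLC25A20 on both sides had counts in SKBR3. PRKAR2A, a regulatory subunit of protein kinase A, had 179.7 ± 5.64 CPM in SKBR3 and 230.1 ± 4.62 CPM in MDA-MB-231 controls (SD, n = 3 and 5). ARIH2, a ubiquitin ligase, had 111 ± 2.37 CPM in SKBR3 and 159.8 ± 2.84 CPM in MDA-MB-231 controls (SD, n = 3 and 5). ARIH2OS, whose centre lies 40.6 kb away, had 1.51 ± 0.0503 CPM in SKBR3 and 1.12 ± 0.215 CPM in MDA-MB-231 controls. Within 500 kb, 33 genes besides SLC25A20 had at least 1 CPM in the controls of either line, PRKAR2A, ARIH2 and ARIH2OS included. Of these, 7 were higher and 24 lower in SKBR3 at an adjusted p under 0.05 from edgeR. Among all 16398 genes tested between the controls, 42% were higher and 44.4% lower. UCN2 had no count in the SKBR3 controls, against 6.73 ± 0.489 CPM in MDA-MB-231. GPX1, a glutathione peroxidase, had 0.439 ± 0.135 CPM against 230.3 ± 19.0 CPM, and COL7A1, a collagen, had 1.88 ± 0.583 CPM against 126 ± 6.10 CPM. GENCODE 29 lists GPX1 as a polymorphic pseudogene. PLXNB1, a plexin receptor, was higher in SKBR3, with 147.7 ± 13.9 CPM against 5.97 ± 0.515 CPM. QARS, a glutaminyl-tRNA synthetase, had 189.8 ± 5.39 CPM in SKBR3 and 200.3 ± 8.80 CPM in MDA-MB-231 controls, which did not pass the test (adjusted p = 0.0901 from edgeR). UCN2, GPX1, COL7A1, PLXNB1 and QARS were picked out after their values were seen.

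**Figure D5:**
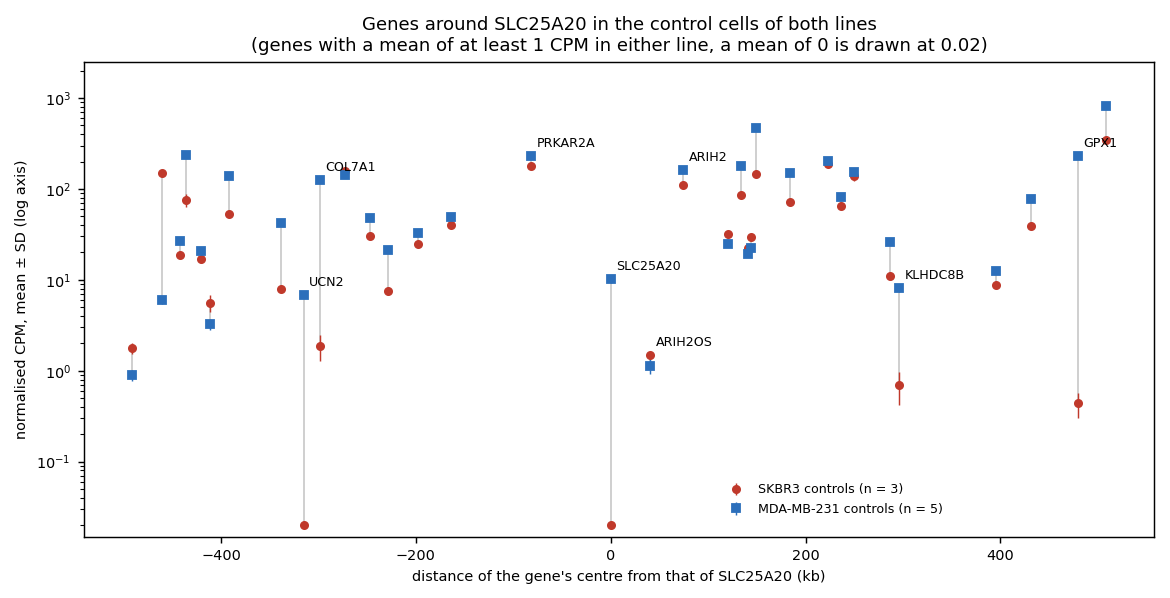
Mean ± SD of normalised CPM (log y axis) of the genes around SLC25A20 by the distance of their centres in kb (x axis), in SKBR3 controls (red circles, n = 3) and MDA-MB-231 controls (blue squares, n = 5), leaving out genes whose mean is under 1 CPM in both lines. A mean of 0 is drawn at 0.02. SLC25A20 and UCN2 drop to 0 in SKBR3 and GPX1 to 0.439 CPM, while PRKAR2A and ARIH2 next to SLC25A20 stay above 100 CPM in both lines.

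Levels of different carriers were compared only per kilobase of gene length, taken as the union of annotated exons. On this scale SLC25A5 held 30.8% of the summed level of the family in MDA-MB-231 with MitoQ and 32.1% in MDA-MB-231 controls, ahead of SLC25A6 (11.2% with MitoQ, 12.7% in controls) and SLC25A3 (9.59% with MitoQ, 10.2% in controls). In SKBR3 the order of the first pair differed between treatments. With MitoQ SLC25A6 held 32.0% ± 0.463 and SLC25A5 23.6% ± 0.120 (SD, n = 3). In controls SLC25A6 held 25.8% ± 0.640 and SLC25A5 28.1% ± 0.954 (SD, n = 3), differences larger than the spread between libraries. SLC25A1 came next in SKBR3, with 7.30% with MitoQ and 7.43% in controls. The order rests on the length used: SLC25A3 has a union of exons of 8896 bases and a principal transcript of 1678 bases, and with the second length it was first in MDA-MB-231, with 29.1% with MitoQ and 31.1% in controls. With either length SLC25A6 stood above SLC25A5 in SKBR3 with MitoQ and below it in SKBR3 controls.

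Genes that work with the carriers were taken from 12 lists of 65 genes, of which 61 were tested in MDA-MB-231 and 59 in SKBR3. In MDA-MB-231 11 were higher and 30 lower with MitoQ (median log2 fold change -0.12), where 29.9% of all genes tested were higher and 27.6% lower. In SKBR3 10 were higher and 19 lower (median -0.11), where 13.8% of all genes tested were higher and 14.1% lower. The same shares of all genes apply to each list that follows. The lists were chosen with earlier results of these data known. All 5 sideroflexins, inner membrane proteins that include serine carriers, were lower in MDA-MB-231. They were led by SFXN5 (10.1 ± 0.748 CPM with MitoQ and 14.3 ± 0.452 CPM in controls, log2 fold change -0.51 ± 0.069, adjusted p = 3.35e-06 from edgeR) and SFXN1 (-0.49 ± 0.049, 6.77e-08). In SKBR3 SFXN1 was lower (-0.17, adjusted p = 0.00318) and SFXN3 higher (0.37, adjusted p = 0.0456). All 3 porins, which let metabolites through the outer membrane, were lower in both lines, with VDAC3 at -0.69 ± 0.052 in MDA-MB-231 (adjusted p = 1.71e-09) and VDAC1 at -0.21 ± 0.038 in SKBR3 (0.00115, both from edgeR). The uncoupling protein UCP2, a member of the same family under another symbol, was lower in MDA-MB-231 (12.0 ± 2.30 CPM with MitoQ and 16.2 ± 0.560 CPM in controls) and higher in SKBR3 (156 ± 5.08 CPM with MitoQ and 134 ± 6.48 CPM in controls). The difference of its effects was past the test (-0.69 ± 0.14, adjusted p = 0.000473 from edgeR). The pyruvate carrier subunit MPC2 fell in both lines (log2 fold change -0.30 in MDA-MB-231 and -0.19 in SKBR3, adjusted p = 0.000136 and 0.0168 from edgeR), and MPC1 fell in SKBR3 (-0.43 ± 0.083, adjusted p = 0.00214).

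Of 4 tested enzymes of the malate-aspartate shuttle 3 were lower in MDA-MB-231, and of 6 that make or use citrate 4 were lower, none of either list higher. GOT2, the mitochondrial aspartate aminotransferase, had 119 ± 3.88 CPM with MitoQ and 171 ± 6.24 CPM in controls (log2 fold change -0.52 ± 0.042, adjusted p = 4.2e-09 from edgeR). MDH1, the cytosolic malate dehydrogenase, fell by 0.39 on the log2 scale (adjusted p = 1.28e-06). Citrate synthase, CS, had 170.4 ± 5.61 CPM with MitoQ and 239 ± 8.48 CPM in controls (-0.49 ± 0.042, adjusted p = 1.1e-08 from edgeR). ACO1, the cytosolic aconitase, fell by 0.75 (adjusted p = 3.42e-11). In SKBR3 GOT2 and CS were lower by less (-0.16 and -0.21, adjusted p = 0.00487 and 0.00151 from edgeR). The receptor TOMM70, through which carriers enter mitochondria, fell in both lines (-0.39 ± 0.054 in MDA-MB-231 and -0.34 ± 0.038 in SKBR3, adjusted p = 5.15e-06 and 2.02e-05 from edgeR), TIMM10 in MDA-MB-231 (-0.53 ± 0.067, 1.46e-06) and TIMM10B in SKBR3 (-0.26 ± 0.056, 0.00343). Of 7 tested genes of the first steps of haem and iron-sulfur cluster synthesis, 2 were higher and 3 lower in MDA-MB-231 (median log2 fold change -0.02). In SKBR3 1 was higher and 3 were lower (median -0.18). ALAS1, the first enzyme of haem synthesis, and ISCU, the scaffold of iron-sulfur clusters, rose in MDA-MB-231 (log2 fold changes 0.56 ± 0.048 and 0.56 ± 0.053, adjusted p = 8.46e-09 and 3.87e-08 from edgeR). NFS1, the desulfurase of iron-sulfur cluster assembly, fell in both lines (-0.24 in MDA-MB-231 and -0.27 in SKBR3, adjusted p = 0.00193 and 0.00284 from edgeR). Among 4 carnitine palmitoyltransferases CPT1A fell in SKBR3 (-0.39 ± 0.035, adjusted p = 4.63e-06 from edgeR), and CPT1B was higher in both lines (0.28 in MDA-MB-231 and 0.42 in SKBR3, adjusted p = 0.0296 and 0.00834). Of 7 genes of the calcium uniporter, MCUB was lower and MCUR1 higher in MDA-MB-231 (-0.22 and 0.10), and none of the 6 tested passed the test in SKBR3, where the smallest adjusted p in edgeR was 0.131.

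Of 5 one-carbon enzymes of mitochondria 4 were higher in each line, led by ALDH1L2 (8.42 ± 0.391 CPM with MitoQ and 1.34 ± 0.161 CPM in controls of MDA-MB-231, 20.7 ± 1.57 CPM with MitoQ and 8.25 ± 1.42 CPM in controls of SKBR3). Its log2 fold changes were 2.65 ± 0.11 and 1.34 ± 0.11 (adjusted p = 4.18e-13 and 2.14e-06 from edgeR). MTHFD2 was next in MDA-MB-231 (1.74 ± 0.039, adjusted p = 3.61e-17 from edgeR) and SHMT2 in SKBR3 (0.47 ± 0.047, 9.93e-06). SLC25A32, the folate carrier itself, was lower in both, but 78% of its 31-base stretches occur in other genes' transcripts. Its SKBR3 call was lost in the single fit (adjusted p = 0.0891 from edgeR) and in several fits that left out a library. Of 7 enzymes of proline, ornithine and glutamate, 3 were higher and 3 lower in MDA-MB-231, and 1 was higher and 3 lower in SKBR3. PYCR1 of proline synthesis rose in both lines (0.995 ± 0.070 in MDA-MB-231 and 0.43 ± 0.084 in SKBR3, adjusted p = 1.41e-09 and 0.00508 from edgeR). Ornithine aminotransferase, OAT, fell in both (-0.38 and -0.21, adjusted p = 2.22e-07 and 0.000946). GLS2 fell by 1.49 in MDA-MB-231 (adjusted p = 0.000123 from edgeR) at a level of 0.285 ± 0.0829 CPM with MitoQ and 0.813 ± 0.151 CPM in controls. GLUD1, glutamate dehydrogenase, rose by 0.24 ± 0.043 in MDA-MB-231 (280.7 to 307.3 CPM with MitoQ and 230.9 to 252.5 CPM in controls, adjusted p = 0.000103 from edgeR) and fell by 0.22 in SKBR3 (adjusted p = 0.00461), and the effects differed (0.41 ± 0.069, adjusted p = 6.12e-05). ALDH18A1, which acts before PYCR1 in proline synthesis, fell in MDA-MB-231 (91.1 ± 4.12 CPM with MitoQ and 114.9 ± 4.27 CPM in controls, log2 fold change -0.33 ± 0.045, adjusted p = 3.57e-06 from edgeR).

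Promoter windows from 250 bases before to 50 bases after the gene start (RefSeq, GRCh38.p14) were searched on both strands for 2 motifs, the core of the C/EBP-ATF response element TGATGNAA and the palindromic NRF1 motif. TGATGNAA was found in 1 of 51 windows of the family (1.96%), that of SLC25A11, and in 3.62% of all 35116 windows. The NRF1 motif was found in none of the 51 (0%) and in 1.24% of all windows.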

How the data were processed

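RNA sequencing reads of 16 libraries were quantified by the authors with Salmon on GRCh38, per the submitters' processing notes, and the deposited values are estimated counts per gene, given as whole numbers. Versions, the strand setting and the origin of the replicates are not given in the sources used here. Members and gene lists were chosen with earlier results of these data known. Counts were tested with the quasi-likelihood F test of edgeR 4.0.16 in R 4.3.3 (two-sided, robust, TMM factors, filterByExpr, Benjamini-Hochberg over all genes, threshold 0.05), within each line, for the interaction over all libraries and between the controls of the lines. Fits were tested on simulated data first. SE is the log2 fold change divided by the square root of F. CPM use TMM library sizes of the same fit. Total counts of 14723152 to 29294865 per library set the precision, and a count of 0 was read as at most 3 counts. The members with per-library values were the 6 largest changes per direction and treatment comparison, 4 per direction for the interaction and 5 for the lines, among called members of at least 1 CPM, and the ADP/ATP carriers. Further called carriers are given by range. Other lists give up to 2 genes per direction, and further genes of them named here were chosen after their values were seen. Annotation was GENCODE 29, in which 35003 of 35106 identifiers were found, and shared sequence was counted as 31-base stretches occurring in transcripts of other genes. Both strands were counted, whether or not the other gene had a row among the deposited counts. Alternatives were RLE factors, plain totals, DESeq2 1.42.0, other filters, leaving out mitochondrially encoded genes, 1 fit of both lines together (the single fit), the replicate number as a block, leaving out each library, and, added after seeing the data, principal transcript length. Protein sequences were not used here. Some genes counted in the totals are not reported here by name.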

Additional observations from a re-analysis of the deposited data

Results flagged for a closer look

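In 8 of 84 sets of 5 MDA-MB-231 libraries, 1 library lay far from the other 4, where chance gives about 1 in 20. Among MitoQ libraries, replicate 2 was low for SLC25A6 (129.9 CPM) and SLC25A23 (45.8 CPM) and high for SLC25A15 (52.8 CPM), and replicate 3 was high for SLC25A5 (314 CPM) and SLC25A42 (6.81 CPM). Among controls, replicate 4 was low for SLC25A3 (629.8 CPM) and SLC25A27 (2.59 CPM), and replicate 5 was high for SLC25A5 (375 CPM). MitoQ 2 also lay apart from the other MitoQ libraries on the second principal component over all genes.

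The MitoQ effect differed between the lines for 15 members, by the interaction test of edgeR (effect in MDA-MB-231 minus effect in SKBR3, log2). The difference was negative for SLC25A35 (-0.85), SLC25A6 (-0.80), SLC25A10 (-0.72), SLC25A13 (-0.70), SLC25A1 (-0.69), SLC25A23 (-0.65), SLC25A4 (-0.49), SLC25A12 (-0.40), SLC25A24 (-0.40), SLC25A11 (-0.32), SLC25A44 (-0.32) and SLC25A3 (-0.27). It was positive for SLC25A45 (0.80), SLC25A26 (0.49) and SLC25A37 (0.31).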

How the results depend on the processing

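No called carrier and no ADP/ATP carrier changed direction under the alternatives run. Of their single values, 1543 kept their side of the threshold, 48 lost the call and 4 gained it; carriers named for missing the test were not refitted one by one. Positive interaction calls among the members were 6 with plain library totals, 5 with DESeq2 and 5 without mitochondrially encoded genes, against 3; the cause was not tested. In the single fit 10 genes of the other lists were lower in SKBR3, against 19. Leaving out 1 library gave 7 to 12 higher and 13 to 15 lower members in MDA-MB-231 (7 higher without control 5), 3 to 7 higher and 4 to 6 lower in SKBR3 (7 higher without control 3), 3 to 4 positive and 12 to 13 negative interactions, and 21 to 22 higher and 16 to 18 lower between lines. For the other lists it gave 9 to 12 higher and 27 to 30 lower in MDA-MB-231, and 6 to 10 higher and 11 to 18 lower in SKBR3, the lowest of both without MitoQ 2. With principal transcript length the shares of the family level in SKBR3 and MDA-MB-231 controls were 15.0% and 31.1% for SLC25A3 (4.10% and 10.2% by union of exons), 22.8% and 21.6% for SLC25A5 (28.1% and 32.1%), and 18.7% and 7.62% for SLC25A6 (25.8% and 12.7%), since the lengths differ. Deviations of libraries with the same replicate number correlated at -0.127 to 0.0338 in MDA-MB-231 and -0.000328 to 0.0927 in SKBR3, so the numbers were not taken as pairs, and not every library correlated best with its own number. With the replicate block, 8363 genes were called in MDA-MB-231 (8805 without it), 4758 in SKBR3 (4202), 5416 for the interaction (5823) and 13916 between lines (14177). Among called carriers the block ended the calls of SLC25A43 in MDA-MB-231 (adjusted p = 0.0669 from edgeR) and of SLC25A12 between lines (0.074). Depth limits carriers near or under 1 CPM, such as SLC25A34 and, in SKBR3, SLC25A42 and SLC25A27.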
